A study of Mus musculus with 5 samples.

Results

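The slow and cardiac-type myosin heavy chains are Myh7, Myh6 and Myh7b, 3 of the 32285 genes counted, and they were chosen by gene symbol. They were read in nuclei of mouse hindlimb skeletal muscle whose Ttn transcripts (titin, the giant spring protein of the sarcomere) made up at least 1% of all counted gene transcripts, which selects nuclei of muscle fibers. This gave 10595 of the 21154 nuclei kept after limits on depth and mitochondrial share. Ttn therefore chose the nuclei and its own level is no finding.

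RNA and open chromatin were read together in each nucleus with the 10x Genomics multiome assay. Wild-type C57BL/6N mice gave 4 libraries, from embryos (E14.5), fetuses (E18.5), 5-day-old pups (P5) and mice of 2 months (adult), and a further library came from Cacna1s-/- fetuses at E18.5 (KO), which carry a germline deletion of the coding region of Cacna1s, the pore subunit of the calcium channel that couples excitation to contraction in skeletal muscle. Hindlimb muscle was freed of skin and bone and pooled, with 56, 14, 8 and 4 hindlimbs in the libraries by age and 26 in KO, and nuclei sorted as positive and negative for PCM1, a protein of the envelope of muscle nuclei, were mixed in equal volumes. Each group is 1 library, so a difference between libraries cannot be told apart from a difference between ages or genotypes, no test was made, and every 95% interval below covers counting error only. Where 5 values are listed they run through the ages from E14.5 to adult and end with KO. A lower summed level can come from fewer expressing nuclei or from less RNA per nucleus, and the counts per nucleus are therefore given with it.

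Muscle myosin heavy chains are the motors of the thick filament, and each fiber type is defined by the chain it carries. Myh7 encodes the slow, or beta-cardiac, chain of slow-twitch fibers and of the heart ventricle, and Myh6 encodes the alpha-cardiac chain, the neighbor of Myh7 in the genome and the main chain of the adult mouse heart. Myh7b is an older relative found in heart, slow muscle, extraocular muscle and muscle spindles. Embryonic Myh3 and neonatal Myh8 precede the adult fast chains Myh2, Myh1 and Myh4 in limb muscle.

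Each of the 3 genes carries a microRNA of 1 family in an intron. The sequences are shown because the kinship of the hosts is visible in them, although microRNAs themselves were not measured. Mir208a lies after exon 29 of 39 of Myh6, Mir208b after exon 31 of 41 of Myh7 and Mir499 after exon 19 of 42 of Myh7b. The mature forms follow 5′ to 3′ from RefSeq (GRCm38.p6), with the seed, bases 2 to 8, in capitals.
mmu-miR-208a-3p (Myh6 host, chr14:54949072-54949093, minus strand): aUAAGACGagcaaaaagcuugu
mmu-miR-208b-3p (Myh7 host, chr14:54975710-54975731, minus strand): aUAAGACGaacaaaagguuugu
mmu-miR-499-5p (Myh7b host, chr2:155622893-155622913, plus strand): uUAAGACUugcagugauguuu
The forms hosted by Myh6 and Myh7 had the same seed and the same base at 19 of 22 positions. The form hosted by Myh7b shared 6 of the 7 seed bases with both.

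In the GENCODE vM21 annotation of GRCm38, Myh7 spanned chr14:54970684-54994626 and Myh6 chr14:54941921-54966927, both on the minus strand, with 3757 bases between the genes. The antisense RNA gene Mhrt (ENSMUSG00000097652) started between them on the plus strand at chr14:54968678-54974349 and overlapped Myh7 by 3666 bases. Myh7b spanned chr2:155611212-155634307 on the plus strand, away from the others. The strand used in counting is not given in the sources used here, so reads in the overlap of Myh7 and Mhrt, and reads of closely similar myosin genes, may have been mixed.

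The 250 bases before each start site are shown because peaks at 2 of these starts differed between ages. They are read 5′ to 3′ along the gene from RefSeq (GRCm38.p6). Capitals mark E-boxes, CANNTG, the motif of the MyoD family, and the MCAT motif GGAATG, to which TEAD factors bind.
Myh7 (chr14:54994627-54994876, minus strand): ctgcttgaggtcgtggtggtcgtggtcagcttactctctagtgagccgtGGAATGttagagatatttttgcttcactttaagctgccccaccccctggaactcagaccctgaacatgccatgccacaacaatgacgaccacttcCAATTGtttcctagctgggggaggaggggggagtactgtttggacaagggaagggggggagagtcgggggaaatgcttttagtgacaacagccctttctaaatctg
Myh6 (chr14:54966608-54966857, minus strand): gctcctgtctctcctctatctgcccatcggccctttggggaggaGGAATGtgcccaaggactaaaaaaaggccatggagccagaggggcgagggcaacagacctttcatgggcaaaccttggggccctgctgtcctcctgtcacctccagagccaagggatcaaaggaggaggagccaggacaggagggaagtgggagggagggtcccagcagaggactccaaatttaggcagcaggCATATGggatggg
Myh7b (chr2:155610993-155611242, plus strand): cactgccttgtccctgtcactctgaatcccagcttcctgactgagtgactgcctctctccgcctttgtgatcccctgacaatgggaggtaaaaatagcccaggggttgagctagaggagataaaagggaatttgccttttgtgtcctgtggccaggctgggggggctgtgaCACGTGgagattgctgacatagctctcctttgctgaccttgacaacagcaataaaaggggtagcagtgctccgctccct
Both strands of a window from 250 bases before to 50 bases after the RefSeq start were searched, and the same window of 32851 promoters gave the background. GGAATG began 201 bases before the start of Myh7 and 206 bases before that of Myh6, was not found at Myh7b, and was present in 14.7% of all promoters. E-boxes stood in all 3 windows and in 72.3% of promoters. TATAAA was found in the Myh6 window alone, from base 2 after the RefSeq start, against 13.6% of promoters. The window of a second RefSeq start of Myh7, farther downstream, did not hold GGAATG. The MEF2 and CArG motifs were in none of the 3 windows and in 3.19% and 1.63% of promoters. A match is a description of letters and says nothing about binding.

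The Ttn-selected nuclei numbered 1867, 1579, 1733, 4429 and 987 by age and in KO. The KO files held 3621 barcodes before any limit. The study counts more KO nuclei than that after its own filter, and what this means for the KO shares and levels was not tested. Their unique molecular identifiers (UMIs, each a counted transcript) summed to 10156121 to 19758491 per library, with medians of 3356 UMIs per nucleus in adult and 4877 to 10333 in the others. Cacna1s stood at 189 to 349 UMIs per 1000000 gene UMIs (CPM) in the wild-type libraries and at 0.720 CPM in KO, or 8 UMIs. The 9 markers of muscle nuclei were detected in every library. Markers of other cells were present at low levels, with a sum of 10.1 to 123 CPM for 10 endothelial genes. The 14 cardiac markers summed to 680, 881, 173, 10.5 and 780 CPM, with 4, 3, 5, 5 and 3 of them at 0, and their part in the Myh6 and Myh7 levels was not tested. The 5 libraries shared 291 barcodes, and a doublet caller marked 120, 235, 0, 1 and 173 of the selected nuclei, so its calls were not relied on for P5 and adult.

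Myh7 was spread thinly over muscle nuclei at E14.5 and was concentrated in few nuclei from E18.5 on. Its summed level was 192 CPM (95% interval 184 to 201), 113 CPM (107 to 119), 118 CPM (112 to 124), 20.1 CPM (18.2 to 22.2) and, in KO, 49.7 CPM (45.6 to 54.0). The order was E14.5, then E18.5 and P5, whose intervals overlapped, then KO and adult. The share of nuclei with at least 1 Myh7 UMI was 49.9%, 10.4%, 6.23%, 0.723% and, in KO, 12.7%. Among those nuclei the mean was 2.10, 8.64, 13.3, 12.4 and 4.42 UMIs. From E14.5 to P5 the share of Myh7-positive nuclei thus was lower at each later age while the UMIs per positive nucleus were higher, and in adult few nuclei held any UMI but those held about as many as at P5. At E14.5, 227 nuclei held 50% of all Myh7 UMIs, and this number was 29, 25 and 8 at the later ages and 20 in KO. The highest single nucleus held 24, 46, 63, 43 and 28 Myh7 UMIs.

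Free RNA was gauged in endothelial-like nuclei (Ttn under 1% and at least 3 endothelial markers), which should lack these myosins. Myh7 was found in 2.52% of 119 such nuclei of E14.5, 0.80% of 125 of E18.5, 2.68% of 112 of P5 and 1.90% of 105 of KO. It was found in 0 of 9 of the adult, which allows a share of up to 33.3%. Their median depths of 4254, 6080, 6043.5, 1026 and 9079 UMIs compare with 4877, 6976, 6438, 3356 and 10333 in the Ttn-selected nuclei. The Myh7 share of muscle nuclei lay above this background at E14.5, E18.5 and in KO with intervals apart, the intervals overlapped at P5 (5.14% to 7.47% against 0.556% to 7.63%), and too few endothelial-like nuclei were present in adult. Mesenchymal-like nuclei (the same rule with mesenchymal markers), with median depths of 3854, 5674, 4589, 1576 and 7564 UMIs, gave a larger background set. Myh7 was found in 2.77%, 0.780%, 0.766%, 0 and 1.50% of them, and the P5 interval of 0.408% to 1.31% lay apart from that of muscle nuclei. The adult value, 0 of 295, allows up to 1.02%, which is above the 0.723% of muscle nuclei. After every nucleus was thinned to 1000 UMIs, Myh7 was seen in 16.9%, 5.65%, 4.41%, 0.631% and 3.98% of muscle nuclei, with 38, 5, 77, 464 and 7 shallower nuclei left out, and in none of 117, 125, 108, 5 and 104 thinned endothelial-like nuclei.

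**Figure D1:**
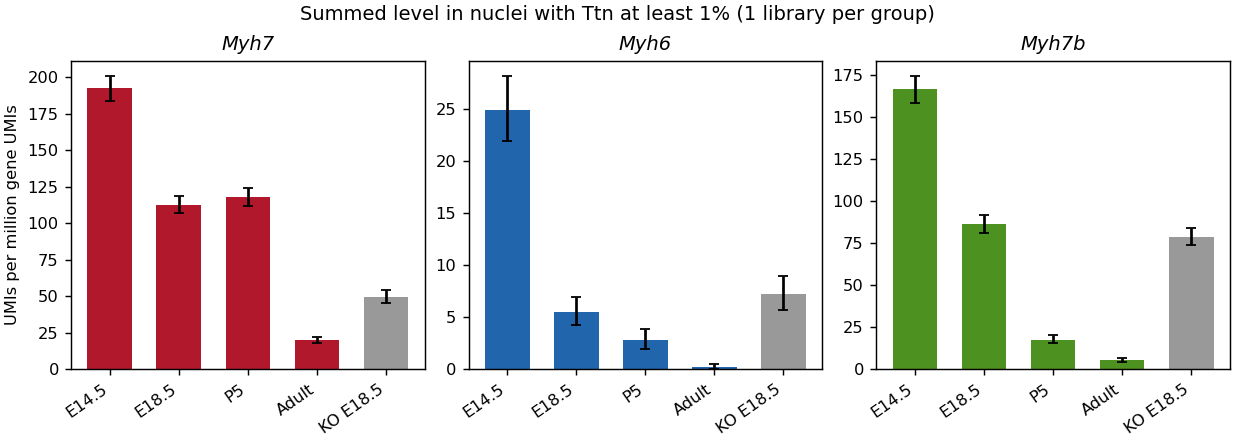
Summed level of Myh7, Myh6 and Myh7b in the Ttn-selected nuclei of each library, in CPM, with exact Poisson 95% intervals as error bars and 1 library per bar (the KO bar in gray). All 3 genes are highest at E14.5 and lowest in adult, and the 3 panels have different vertical scales.

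Myh6 was the rarest of the 3 in every library. Its level was 24.9 CPM (21.9 to 28.2), 5.44 CPM (4.24 to 6.89), 2.78 CPM (1.93 to 3.89), 0.202 CPM (0.0552 to 0.518, from 4 UMIs) and, in KO, 7.20 CPM (5.71 to 8.96). E14.5 stood above the rest, KO and E18.5 had overlapping intervals, and P5 and adult followed. Myh6 was found in 11.5%, 2.28%, 1.38%, 0.0677% and 2.84% of muscle nuclei and in 0.840%, 1.60%, 0, 0 and 1.90% of endothelial-like nuclei, where 0 of 112 and 0 of 9 allow up to 2.68% and 33.3%. After thinning the shares in muscle nuclei were 2.30%, 0.381%, 0.362%, 0.0252% and 0.204%. Against endothelial-like nuclei the intervals were apart at E14.5 only. Of mesenchymal-like nuclei, 0.627%, 0.275%, 0.118%, 0 and 1.07% held Myh6. Against these the unthinned intervals were apart at E14.5, E18.5, P5 and in KO, with the smallest distance in KO (1.89% to 4.07% against 0.603% to 1.77%). These shares were not matched in depth. With both sets thinned to 1000 UMIs the intervals were apart at E14.5 only. With both thinned to 2000 UMIs they were apart at E14.5, E18.5 and P5. In KO they then overlapped (0.168% to 1.199% against 0.0175% to 0.522%). The mean per positive nucleus stayed between 1.18 and 1.92 UMIs in the wild-type libraries. It was 2.86 UMIs in KO, where 1 nucleus held 42 of the 80 Myh6 UMIs.

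Myh7b followed another course, with its largest step between E18.5 and P5. Its level was 167 CPM (159 to 175), 86.4 CPM (81.4 to 91.7), 17.6 CPM (15.3 to 20.1), 5.52 CPM (4.53 to 6.65) and, in KO, 78.9 CPM (73.7 to 84.3). The intervals of E18.5 and KO overlapped and all other neighbors in the order stood apart. Myh7b was found in 25%, 9.82%, 3.75%, 0.587% and 13.9% of muscle nuclei and in 2.52%, 0.80%, 0.893%, 0 and 0.952% of endothelial-like nuclei. The intervals overlapped at P5 (2.91% to 4.76% against 0.0226% to 4.87%), and 0 of 9 in adult allows up to 33.3%. Of mesenchymal-like nuclei, 1.93%, 0.597%, 0.118%, 0 and 1.29% held Myh7b. Against these the intervals were apart at E14.5, E18.5, P5 and in KO. The adult value, 0 of 295, allows up to 1.02%, which is above the share of muscle nuclei. After thinning the shares were 11.8%, 4.51%, 1.15%, 0.353% and 6.02% in muscle nuclei, and 1 of 104 endothelial-like nuclei of KO, 0.962%, still held Myh7b. The mean per positive nucleus was 3.63, 7.06, 3.31, 4.19 and 6.39 UMIs. Whereas Myh7 reached its largest number per positive nucleus at P5, Myh7b reached it at E18.5.

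**Figure D2:**
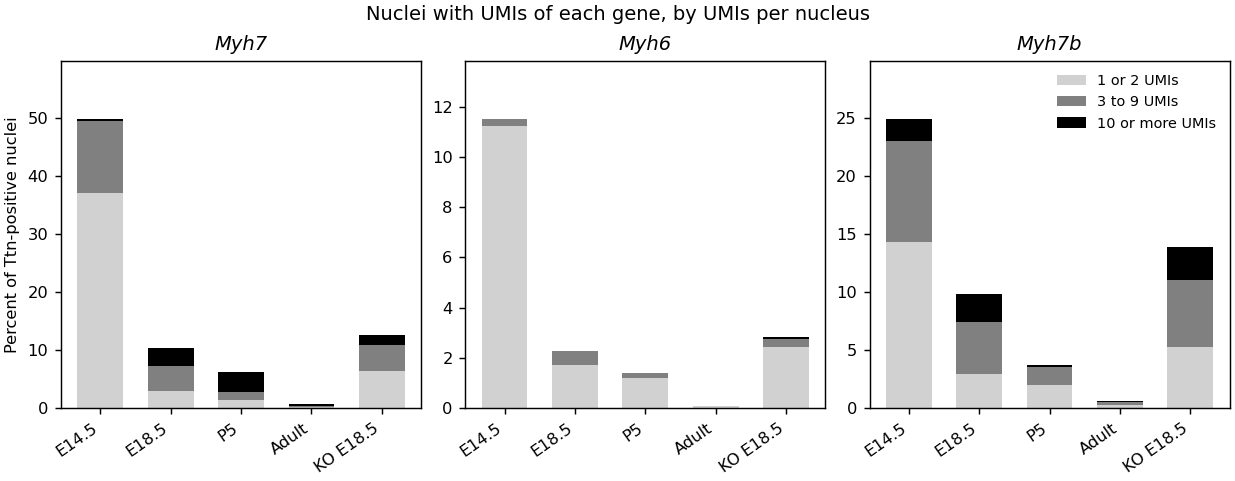
Percent of Ttn-selected nuclei with UMIs of Myh7, Myh6 and Myh7b in each library, divided by the number of UMIs in the nucleus (light gray 1 or 2, dark gray 3 to 9, black 10 or more); the vertical scales differ. At E14.5, 694 of the 931 Myh7-positive nuclei held 1 or 2 UMIs, whereas 61 of the 108 at P5 held 10 or more.

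The distribution of UMIs per nucleus separated the genes further. Nuclei with 10 or more Myh7 UMIs numbered 6, 51, 61, 18 and 18. Myh7b had 35, 38, 3, 3 and 28 such nuclei. Myh6 had none in the wild-type libraries and 1 in KO. Nuclei with a high count of Myh7b were thus already present at E14.5, when nearly all Myh7-positive nuclei held few UMIs.

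Relative to all 10 sarcomeric myosin heavy chains counted, the slow and cardiac-type genes were a small part after E14.5. Together they made up 17.2%, 4.57%, 2.39%, 0.621% and 3.50% of myosin UMIs. Embryonic Myh3 led at E14.5 with 61.8%, neonatal Myh8 at E18.5 with 72.1%, at P5 with 55.8% and in KO with 72.6%, and fast Myh4 in adult with 71.6%. Among the UMIs of the 3 genes, Myh7 and Myh7b were near parity at E14.5, with 50.1% and 43.4%, and at E18.5, with 55.1% and 42.3%. At P5 the Myh7 share was 85.2% and that of Myh7b 12.7%. In KO the order turned, with 36.6% Myh7 and 58.1% Myh7b.

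Per kilobase of gene, the scale on which genes can be compared where intronic reads are counted, the level of Myh7 was 8.04, 4.70, 4.92, 0.839 and 2.08 CPM per kb and that of Myh7b 7.22, 3.74, 0.761, 0.239 and 3.41. Myh6 was at 0.996, 0.218, 0.111, 0.00810 and 0.288 CPM per kb. For scale, Myh8 was at 102 CPM per kb at E18.5 and Myh4 at 133 in adult.

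Between consecutive ages the 3 genes moved by different amounts. From E14.5 to E18.5 Myh7 was 1.71-fold lower (1.60 to 1.83), Myh7b 1.93-fold lower (1.79 to 2.08) and Myh6 4.58-fold lower (3.49 to 6.06), and of all 14560 genes measured, with at least 20 UMIs in 1 of both libraries, 9.94% were at least 2-fold lower and 17.3% higher. From E18.5 to P5 the summed Myh7 level was nearly unchanged, at 1.05 times the E18.5 value (0.971 to 1.13). Myh6 was 1.96-fold lower (1.28 to 3.05) and Myh7b 4.91-fold lower (4.24 to 5.71), against 21.4% of genes at least 2-fold lower and 7.68% higher. The Myh7 ratio joined opposite differences by Ttn share. Where Ttn was 1% to under 3%, P5 nuclei held more Myh7 (139 CPM, 129 to 149) than E18.5 nuclei (84.3, 78.1 to 90.8). Where Ttn was 3% and over, P5 nuclei held less (98.8 CPM, 91.2 to 107, against 165, 153 to 178). These ranges held 763 and 970 nuclei of P5, against 960 and 619 of E18.5. From P5 to adult all 3 were lower, Myh7 5.86-fold (5.24 to 6.56), Myh6 13.7-fold (4.90 to 53.3) and Myh7b 3.19-fold (2.52 to 4.05), where 33.8% of genes were at least 2-fold lower and 8.31% higher. With TMM or DESeq2 scaling the P5 level of Myh7 was 1.34 or 1.35 times that of E18.5, and Myh7b was past 2-fold lower from E14.5 to E18.5 (2.14-fold and 2.21-fold). The adult library had fewer UMIs of other cells in the selected nuclei, with 10 mesenchymal genes summing to 44.2 CPM against 1812 CPM at P5, and the part of this in the ratios was not tested.

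In KO against E18.5, Myh7 was 2.26-fold lower (2.05 to 2.50) and Myh7b was at 0.913 times the wild-type level (0.834 to 0.998), and 5.52% of 14589 genes were at least 2-fold lower and 6.20% higher. Myh6 was at 1.32 times (0.947 to 1.85), and at 0.723 times (0.468 to 1.10) when the highest nucleus of each library was left out. The antisense RNA Mhrt was at 11.7 CPM at E18.5 and 3.06 CPM in KO, 3.82-fold lower (2.61 to 5.71). Myh7 was thus past 2-fold lower and Myh7b within 2-fold. The 3 comparisons that involve E18.5 share that library. With no limits on depth, mitochondrial share or ATAC counts, and Ttn still at 1% or more, Myh7 was 1.98-fold lower in KO. In KO, 10 endothelial genes summed to 123 CPM against 68.7 CPM at E18.5 and 10 mesenchymal genes to 614 against 1621 CPM, whose part was not tested.

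Other genes of the slow fiber program did not all go with Myh7. Of 20 slow genes, 9 were at least 2-fold lower in KO and 0 were higher, beside 5.52% and 6.20% of all genes, with a median log2 ratio of -0.54 against -0.03 over all genes. Fast fiber genes were lower as well, 7 of 16 with 0 higher and a median of -0.79. Those with the largest ratios were Myl2, the slow regulatory light chain, at 34.3 CPM in E18.5 and 0.720 CPM in KO (47.7-fold lower), Smtnl1, a smoothelin-like protein, 11.6-fold lower, Ankrd2, a stretch-responsive repeat protein, 9.12-fold lower, and Myl3, the slow essential light chain, 6.57-fold lower. In contrast, the slow troponins Tnnt1, Tnni1 and Tnnc1 were at 1.26, 0.741 and 0.713 times the E18.5 level. Of 25 regulators of the slow program, 0 were past 2-fold in KO, with Prox1 at 1.48 times, Esrrb at 0.564 times and Nfatc1 at 0.537 times. Among the ages, 16 of the 20 slow genes were at least 2-fold lower in adult than at P5, where 33.8% of all genes were. At P5 7 were lower and 3 higher than at E18.5, beside 21.4% and 7.68% of all genes, and at E18.5 4 were lower and 8 higher than at E14.5, beside 9.94% and 17.3%.

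Joint detection asked whether the genes were found in the same nuclei more often than the product of their shares gives. At E14.5 the observed numbers were 1.04 to 1.34 times that product: 273 nuclei held both Myh7 and Myh7b against 232, 144 held Myh7 and Myh6 against 107, and 56 held Myh6 and Myh7b against 53.7. At E18.5, 125 nuclei held both Myh7 and Myh7b where the product gives 16.2, a ratio of 7.72. The P5 numbers were 57 against 4.05, a ratio of 14.1. Adult nuclei gave 18 against 0.188, a ratio of 95.8, and KO nuclei 73 against 17.4, a ratio of 4.21. The largest ratio that the shares allow, with every nucleus of the rarer gene holding the other, was 2.01, 9.57, 16.0, 138 and 7.20, so the ratios at different ages cannot be compared by size. Because detection depends on depth and a shared depth raises joint counts, nuclei were also thinned to 1000 UMIs, where the ratio for this pair was 1.26, 9.71, 15.5, 125 and 6.81. Leaving out the called doublets gave 1.16 at E14.5, 8.16 at E18.5 and 4.45 in KO.

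**Figure D3:**
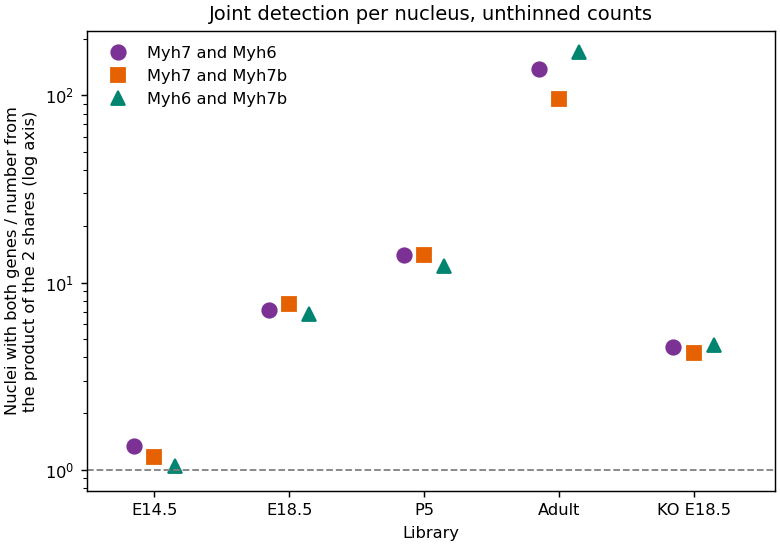
Number of nuclei holding both genes of a pair divided by the number that the product of their separate shares gives, for each library, on a log axis; circles are Myh7 with Myh6, squares Myh7 with Myh7b and triangles Myh6 with Myh7b, and the dashed line is a ratio of 1. At E14.5 the ratios are 1.04 to 1.34 and at all other stages at least 4.21; the adult points with Myh6 rest on 3 nuclei.

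From the other side, the share of Myh7b-positive nuclei that also held Myh7 was 58.6%, 80.6%, 87.7%, 69.2% and 53.3%. Among nuclei without Myh7b it was 47.0%, 2.81%, 3.06%, 0.318% and 6.12%. The share of Myh7-positive nuclei with Myh7b was 29.3%, 75.8%, 52.8%, 56.3% and 58.4%. At E18.5, 125 of the 195 nuclei with either gene therefore held both, whereas at P5 nearly all Myh7b nuclei held Myh7 and about as many Myh7 nuclei lacked Myh7b as held it. Of the Myh6-positive nuclei, 27 of 36 also held Myh7 at E18.5 and 21 of 24 at P5, whereas 16.4% and 19.4% of the Myh7-positive nuclei held Myh6. All 3 genes were found together in 37, 22, 11, 3 and 15 nuclei.

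Nuclei rich in Myh7 were then compared with nuclei free of it, to see which other genes went with it. A rich nucleus held at least 3 Myh7 UMIs at 500 CPM or more, and a free nucleus held 0 Myh7 UMIs among at least 2000. There were 154, 102, 81, 26 and 37 rich nuclei, or 8.25%, 6.46%, 4.67%, 0.587% and 3.75% of the muscle nuclei, and 856, 1392, 1484, 3010 and 847 free nuclei. The rich nuclei held 36.6%, 90.5%, 96.8%, 97.5% and 65.2% of all Myh7 UMIs. The split was thus less sharp at E14.5, where most Myh7-positive nuclei held 1 or 2 UMIs, and to a lesser degree in KO. Ratios of rich over free nuclei at E14.5 therefore cannot be compared by size with those of later ages. A cut of this kind makes a range and not a nuclear type: 553, 62, 23, 3 and 48 nuclei lay near the limit, with 250 to under 1000 CPM of Myh7. Median depths were 5360, 6614.5, 7574, 3813 and 8412 UMIs in rich and 4783, 7016, 6721.5, 4948 and 10442 UMIs in free nuclei.

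In Myh7-rich nuclei Myh7b was past 2-fold higher from E18.5 on and in KO, and Myh6 at E14.5, E18.5, P5 and in KO. Myh7b was at 250 CPM in rich and 147 CPM in free nuclei at E14.5, 1.69 times (1.45 to 1.97). At E18.5 it was at 855 and 11.7 CPM, 73.3 times (60.7 to 89.0), at P5 at 241 and 1.69 CPM, 142 times (88.2 to 242), in adult at 847 and 0.335 CPM, 2526 times (1119 to 7052), and in KO at 634 and 36.3 CPM, 17.5 times (14.8 to 20.7). The genes at least 2-fold higher in rich nuclei were 2.90%, 5.92%, 6.03%, 7.13% and 6.55% of those measured. Myh6 was 2.17 times as high in rich nuclei at E14.5 (1.40 to 3.28), 19.8 times at E18.5 (11.6 to 34.3), 168 times at P5 with 3 UMIs in free nuclei (52.2 to 859) and 4.22 times in KO (1.83 to 8.61). At E18.5 it was found in 19.6% of rich and 0.647% of free nuclei of similar depth. Mhrt was at 157 CPM in rich and 0.269 CPM in free nuclei at E18.5, with 3 UMIs in free nuclei, 583 times (195 to 2865), but strand was not given and reads of Myh7 itself could be counted there.

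Slow fiber genes were higher in Myh7-rich nuclei in larger number from E18.5 on than at E14.5, where the split was less sharp. The part of the split in this difference was not tested. Of 20 slow genes, 3 of 15 measured were at least 2-fold higher in rich nuclei at E14.5, then 15 of 19, 15 of 19 and 15 of 17 at the later ages and 10 of 14 in KO, and 0 were lower in any library. The shares over all genes, 2.90%, 5.92%, 6.03%, 7.13% and 6.55%, were below these in each library. Median log2 ratios were 0.61, 1.71, 2.39, 4.5 and 1.46, where all genes had -0.03, -0.16, -0.15, 0.25 and -0.05. At E14.5 the 3 were the light chain Myl6b at 2.20 times, the muscle LIM protein Csrp3 at 2.12 times and the LIM protein Fhl1 at 2.02 times.

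At E18.5 the light chain Myl2 stood at 463 CPM in rich and 1.17 CPM in free nuclei (397 times) and Myl3 at 159 and 0.538 CPM (296 times). Tpm3, the slow tropomyosin, was at 2341 and 69.9 CPM, 33.5 times (30.8 to 36.4), and the troponins Tnnt1, Tnnc1 and Tnni1 were 7.62, 5.51 and 3.10 times as high. The ratios of the troponins were larger later, 87.6, 169 and 61.9 times at P5 and 1121, 1614 and 833 times in adult. Free nuclei held Tnnt1 at 182, 64.2, 4.90 and 0.950 CPM at the 4 ages. The calcium pump Atp2a2 had the same course, with ratios of 1.06, 2.02, 19.0 and 382. At E18.5 the ratios of the light chains and the tropomyosin were thus above those of the troponins and the pump, which were larger at P5.

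In KO rich nuclei, Tpm3 was at 934 and 68.3 CPM (13.7 times), Tnnt1 at 4.39 times and Atp2a2 at 2.79 times, but Myl2 was at 5 UMIs in rich and 2 UMIs in free nuclei, too few to be counted as measured. The 102 rich nuclei of E18.5 held 386 Myl2 UMIs, and the 37 of KO therefore held few although they were chosen for Myh7. Genes were also ranked by the highest ratio in the lowest library, among the 977 with at least 20 UMIs in the rich nuclei of every library. This limit is set in the rich nuclei and leaves out genes of low level. The 5 leading genes were the nonmuscle myosin Myh10 (at least 2.11 times in each), Fhl1 (2.02), Tpm3 (1.93), Tnnt1 (1.91) and the thin filament protein Lmod2 (1.80). Each of these lowest ratios was that of E14.5, where the split was less sharp.

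**Figure D4:**
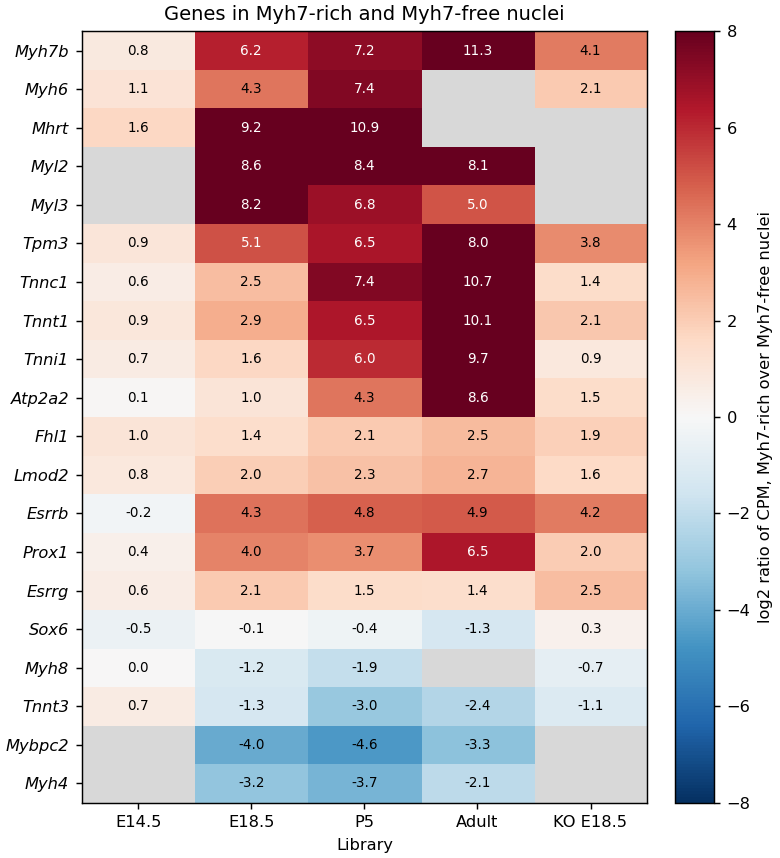
Ratio of CPM in Myh7-rich over Myh7-free nuclei on a log2 scale, for 20 genes in each library; red is higher and blue lower in rich nuclei, and gray cells had under 20 UMIs in both sets or 0 UMIs in either. Slow genes turn red from E18.5 on. Fast Mybpc2 turns blue (-4.01, -4.60 and -3.28 at E18.5, P5 and adult), from few UMIs in rich nuclei at E18.5. The fast genes shown are Tnnt3, Mybpc2 and Myh4. Fast Myh2, higher in rich nuclei at E18.5, is not shown. Of the measured fast genes, 4 of 16 were lower and 2 higher at E18.5, and in KO 2 of 15 were lower and 3 higher.

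Fast fiber genes behaved differently by age. At E14.5, 3 of 11 measured fast genes were higher in Myh7-rich nuclei and 3 lower, and the higher ones were troponin Tnnc2 at 4.39 times, the regulatory light chain Mylpf at 2.97 times and troponin Tnni2 at 2.68 times. At E18.5, 4 of 16 were at least 2-fold lower and 2 higher. The P5 count was 13 of 16 lower and that of adult 15 of 16, whereas KO had 2 of 15 lower and 3 higher. The genes at least 2-fold lower were 5.73%, 13.8%, 12.5%, 6.80% and 11.0% of those measured in the 5 libraries, and those higher 2.90%, 5.92%, 6.03%, 7.13% and 6.55%. Mybpc2, the fast myosin-binding protein C, was at 2 UMIs in rich nuclei of E18.5 and at 10.5 and 254 CPM at P5, 24.3-fold lower, and Myh4 at 130 and 1702 CPM, 13.1-fold lower. Fast Myh2 was 12.9 times as high in rich nuclei of E18.5 (8.84 to 18.8), with 69.5 against 5.38 CPM, but at P5 it was at 64.3 against 114 CPM and in adult at 0 against 5958 UMIs, at least 12.7-fold lower. Neonatal Myh8 was 2.35-fold lower at E18.5 and 3.81-fold lower at P5, and 1.04 times at E14.5.

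Of 25 regulators of the slow program, 0, 4, 4, 5 and 7 were at least 2-fold higher in rich nuclei, beside 2.90%, 5.92%, 6.03%, 7.13% and 6.55% of all genes. Lower were 1, 1, 1, 3 and 0 of them, beside 5.73%, 13.8%, 12.5%, 6.80% and 11.0% of all genes. The orphan nuclear receptor Esrrb was at 107 and 5.30 CPM at E18.5 (20.1 times), 27.6 times at P5, 29.8 times in adult and 17.8 times in KO, and at 0.854 times at E14.5. Prox1, a homeobox factor known from slow fibers, was at 140 and 8.97 CPM at E18.5 (15.6 times), 13.4 times at P5, 87.9 times in adult, 4.04 times in KO and 1.32 times at E14.5. Esrrg, the sister receptor, was 4.26, 2.82, 2.68 and 5.62 times as high at E18.5, P5, adult and KO. Sox6, a repressor of slow genes, was at 1365 and 1417 CPM at E18.5 and 2.51-fold lower only in adult, and Maf was 5.15-fold lower at P5 and 7.96-fold lower in adult. Tead1, whose family binds the MCAT motif printed for Myh7, was within 2-fold in all libraries (0.951 to 1.76 times).

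Markers of other cells moved between the sets too. Macrophage genes summed to 207 CPM in rich and 76.0 CPM in free nuclei at E18.5, with 3 of 5 measured genes higher, and to 166 and 73.0 CPM in KO, with 4 of 5 higher. Endothelial genes summed to 276 and 107 CPM in KO, with 2 of 10 higher. At P5 the macrophage genes were at 23.9 and 353 CPM, and 6 of 10 mesenchymal genes were lower. Of all genes, 5.92% were higher at E18.5 and 6.55% in KO, and 12.5% were lower at P5. The part of these cells in the results was not tested.

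Nuclei rich in Myh7b, defined by the same limits after the data were seen, numbered 180, 92, 20, 13 and 58. Myh7 was found in 61.1% of them at E14.5, where 48.7% of Myh7b-free nuclei held it, in 92.4% against 2.85% at E18.5, in 90% against 3.21% at P5 and in 62.1% against 6.22% in KO. At E14.5 some slow genes were higher in these nuclei that were within 2-fold or too few to measure in Myh7-rich nuclei of that age. Myh7b-rich nuclei of E14.5 held 73.8% of Myh7b UMIs, against 36.6% of Myh7 UMIs in Myh7-rich nuclei. Myl3 was at 24.6 CPM in Myh7b-rich and 2.30 CPM in free nuclei, 10.7 times (5.44 to 21.5), Tpm3 at 291 and 65.4 CPM, 4.45 times (3.81 to 5.19), and Esrrb at 60.4 and 4.59 CPM, 13.2 times (8.42 to 20.9), where 5.51% of measured genes were at least 2-fold higher. The later libraries had 5.77%, 5.27%, 6.40% and 6.89% higher, and the lower share was 13.0%, 14.3%, 9.59%, 6.26% and 11.5%. Of the slow genes, 4 of 18 were higher at E14.5 and 1 lower, then 14 of 19, 14 of 19 and 14 of 16 higher, with 1 lower in adult, and 10 of 13 in KO. The slow troponin Tnnt1 was at 256 and 194 CPM, 1.32 times. Across the 4 libraries with at least 20 such nuclei, 1254 genes had at least 20 UMIs in the Myh7b-rich nuclei of each and were ranked. This limit too is set in the rich nuclei, which favors genes high in them, and the P5 set holds only 20 rich nuclei. The leading genes were the glutamate receptor subunit Grin2a (at least 15.7 times in each), Esrrb (13.2), the ceramide synthase Cers4 (4.75), Tpm3 (4.45) and the potassium channel Kcnd2 (3.85). In KO, Grin2a was at 139 and 5.49 CPM and Tpm3 at 19.5 times. Macrophage genes were at 159 and 74.2 CPM at E18.5, with 3 of 5 higher. At P5 endothelial genes were at 262 and 77.1 CPM, with 4 of 8 higher, mesenchymal genes at 220 and 1791 CPM, with 7 of 10 lower, and macrophage genes at 7.09 and 342 CPM. In KO endothelial genes were at 50.6 and 109 CPM, and the part of these cells was not tested.

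Open chromatin was read as ATAC counts in the peaks called within each library. A peak within 1000 bases of the start site was present for Myh7 and Myh6 at E14.5 and in no other library, and for Myh7b in none. Among genes with at least 20 UMIs in the same nuclei, 90.6%, 91.8%, 90.9%, 93.5% and 89.9% had such a peak. The Myh7 start peak (chr14:54994313-54995239) contained the printed promoter and held 53.1 counts per 1000000 ATAC counts of the nuclei (also written CPM) in Ttn-selected nuclei against 6.19 in nuclei with Ttn under 0.1%, 8.57 times (6.51 to 11.5), where 25.7% of all peaks were at least 2-fold higher (20.0%, 19.1%, 30.9% and 20.7% in the other libraries). The Myh6 start peak (chr14:54966367-54967096) held 7.05 against 2.43 CPM, 2.90 times (1.79 to 4.89). Peaks were called on whole libraries, so a start open in few nuclei may not have been called, and a missing peak is not a closed start.

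Apart from the start peak of E14.5, the peak nearest to the Myh7 start lay upstream in every library. Its centre was 2.60, 2.64, 2.67, 2.84 and 2.65 kb before the start. In Myh7-rich against free nuclei it held 72.0 and 56.3 CPM at E14.5, 1.28 times (0.969 to 1.67). At E18.5 it held 54.4 and 12.4, 4.39 times (3.15 to 6.01), and P5 had 75.5 and 5.63, 13.4 times (8.97 to 19.9). Adult nuclei had 43.0 and 0.829, 51.9 times (21.9 to 114, from 10 counts in rich nuclei), and KO nuclei 132 and 22.6, 5.85 times (3.72 to 8.92). Of all peaks, 4.71%, 9.77%, 10.1%, 9.51% and 11.4% were at least 2-fold higher in rich nuclei. The upstream peak thus had an interval that spans 1 at E14.5, where the split was less sharp, and lay above 2-fold in the other libraries. The Myh7 start peak of E14.5 held 74.0 and 45.4, 1.63 times (1.23 to 2.14).

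A further peak 9.40 to 9.42 kb upstream showed the same course. At E18.5 (chr14:55003650-55004409) it held 50.3 CPM in rich and 6.24 in free nuclei, 8.06 times (5.54 to 11.6), and at P5 86.5 and 3.38, 25.6 times (16.5 to 40.1). At E14.5 it was called as 2 peaks, with 1.15 and 1.28 times, and none was called there in adult or KO. The peak at the start of the neighbor gene Ngdn, 20.7 kb upstream, gave a contrast and held 84.1 and 87.2 CPM at E18.5 with ratios of 0.919 to 1.36 over the 5 libraries. Both upstream peaks thus differed between rich and free nuclei at E18.5 and P5, and the nearer one also in adult and KO. At E14.5 the intervals of all upstream peaks spanned 1. The ratios of the neighbor gene were smaller from E18.5 on and in KO, but at P5 its interval lay above 1 (1.07 to 1.70).

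**Figure D5:**
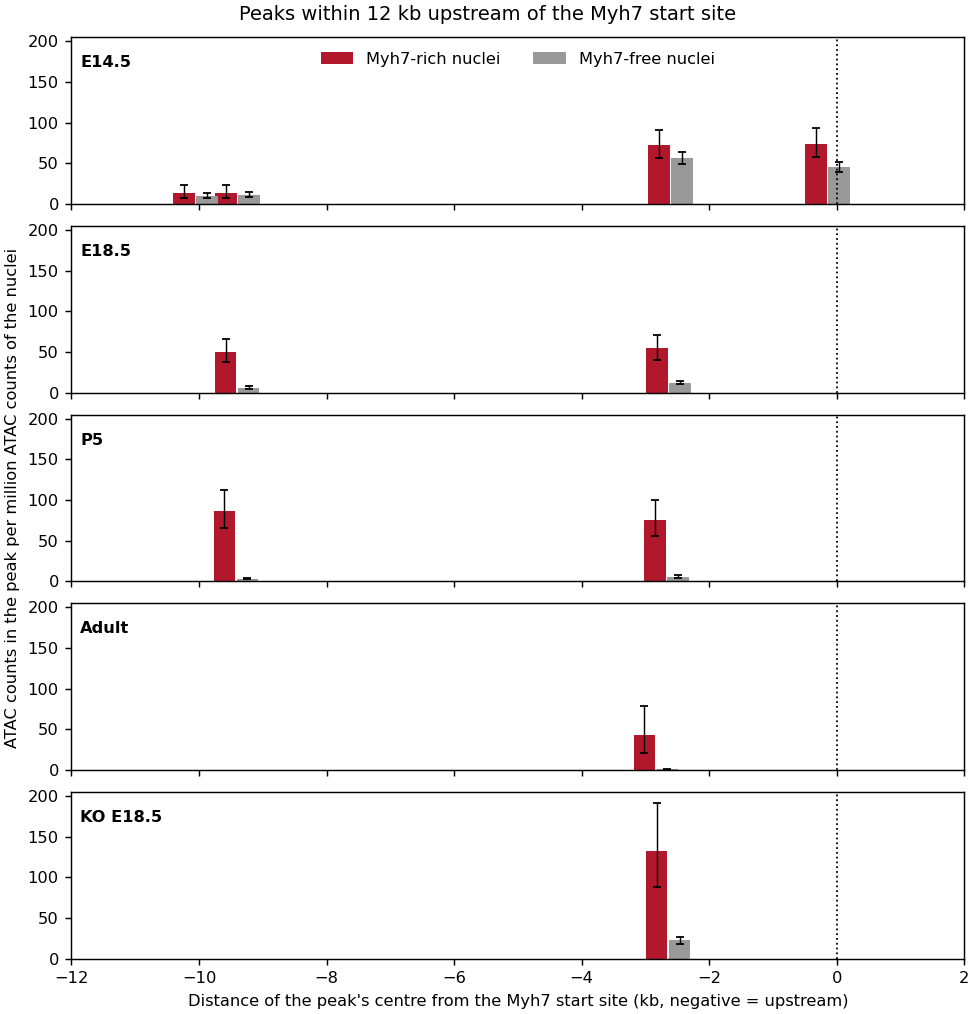
ATAC CPM in the peaks up to 12 kb upstream of the Myh7 start, in Myh7-rich (red) and Myh7-free (gray) nuclei of each library, placed by the distance of the peak's centre from the start (dotted line), with exact Poisson 95% intervals. A peak at the start itself is seen at E14.5 only, and the bars 2.60 to 2.84 kb upstream differ between rich and free nuclei in all later libraries.

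Myh7b had no start peak but held peaks on both sides. A peak centred 4.77 kb upstream at E14.5 held 43.0 CPM in Ttn-selected and 4.98 in low-Ttn nuclei, 8.63 times (6.35 to 12), at E18.5 15.8 and 2.72, 5.82 times (4.28 to 8.04), and in KO 27.5 and 10.3, 2.66 times (1.98 to 3.60). A peak 3.66 kb upstream at E14.5, and 3.55 kb at E18.5, held 31.7 and 1.11 at E14.5, 28.7 times (15.4 to 60.4), and 3.64 and 0.533 at E18.5, 6.82 times (3.44 to 15.0). Neither was called at P5 or in adult, and the nearer was not called in KO. In Myh7b-rich against free nuclei the nearer peak held 60.9 and 24.6 CPM at E14.5, 2.48 times (1.86 to 3.27), where 6.58% of peaks were at least 2-fold higher (10.5%, 7.71%, 7.71% and 11.2% in the other libraries), and the farther one 39.8 and 41.6, 0.955 times (0.688 to 1.30). At E18.5 the nearer was 4.81 times (2.37 to 9.16) and the farther, at 32.4 and 15.0 CPM, 2.16 times (1.40 to 3.22). A peak 14.1 kb upstream, called at E14.5 alone, held 44.0 and 13.1 CPM, 3.35 times (2.35 to 4.73). A peak 2.34 to 2.42 kb inside the gene was called in every library and was 0.805 to 1.73 times as high in Ttn-selected as in low-Ttn nuclei.

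By likeness of level over the 5 libraries (the mean absolute difference of log2 of CPM + 1, each gene centred on its mean, among 10148 genes that reached 10 CPM in a library), the genes nearest to Myh7 were Grin3a at 0.07, Bcat1 at 0.13 and Rnf165 at 0.15. Those nearest to Myh6 were Hunk at 0.13, Gm6994 at 0.15 and Gm49969 at 0.16, and those nearest to Myh7b were Dzip3 at 0.11, Mex3b at 0.16 and Pcdh11x at 0.16. The 3 myosins were farther from each other, at 0.50 between Myh6 and Myh7b, 0.79 between Myh7 and Myh6 and 1.06 between Myh7 and Myh7b. These distances describe 5 libraries and carry no test.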

How the data were processed

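Nuclei of mouse hindlimb muscle were measured by 10x multiome in 5 libraries. Per the labels and the study's methods, the authors aligned reads to mm10 with Cell Ranger ARC 2.0.0, with intronic reads included and peaks called within each library, and deposited whole-number counts of gene UMIs and of ATAC counts per peak. Groups came from the labels, and each holds 1 library.

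From these counts, barcodes were kept if they held more than 400 but fewer than 25000 gene UMIs, a mitochondrial share below 10% and fewer than 70000 ATAC counts, and nuclei with Ttn at 1% or more of gene UMIs were summed. Levels are UMIs per 1000000 gene UMIs (CPM) with exact Poisson 95% intervals, shares have Clopper-Pearson intervals, and ratios have conditional exact intervals. Intervals and floors of 3 counts cover counting error only. Nuclei were thinned to 1000 UMIs, or to 2000 UMIs as an alternative, with a fixed seed. Genes with at least 20 UMIs in 1 of both groups were measured, and a 2-fold ratio with over 3 UMIs in the higher group was the rule of size. Named genes were the members, the lists, the 5 with the highest lowest ratio over libraries and the 3 nearest in likeness. The members and lists were chosen with earlier results of these data known, and the Myh7b split, the 3-UMI limit on a call and leaving out the highest nucleus were added after the data were seen. Scrublet called doublets, which were kept and left out as an alternative. The scripts were tested on simulated data. Python 3.11.15, numpy 2.4.6, scipy 1.17.1, scanpy 1.11.5, R 4.3.3, edgeR 4.0.16 (TMM factors) and DESeq2 1.42.0 (size factors) were used. Promoters and microRNAs are from RefSeq GRCm38.p6.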

Additional observations from a re-analysis of the deposited data

How the results depend on the processing

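No paired analysis was possible because each group holds 1 library. Of 108 alternative values of the level ratios, 83 moved by less than the counting interval, 25 moved further and 6 changed their side of 2-fold. No ratio past 2-fold changed direction, but 4 values within 2-fold crossed 1, for Myh7 in P5 over E18.5 and for Myh6 and Myh7b in KO over E18.5, as given below. With Ttn at 1% or more as the only limit on nuclei, the E18.5 over E14.5 ratio was 0.500 for Myh7 and 0.468 for Myh7b, and the KO over E18.5 ratio was 0.505 and 1.06. With Ttn at 2% or more the first were 0.513 and 0.622, and Myh7 was at 0.971 in P5 over E18.5. With at least 400 ATAC counts they were 0.522 and 0.456, and Myh7 was at 1.17 in P5 over E18.5. TMM factors gave 0.527 and 0.467 for E18.5 over E14.5, 1.34 and 0.260 for P5 over E18.5 and 0.234 and 0.430 for adult over P5, and DESeq2 size factors gave 0.511 and 0.453, 1.35 and 0.263, and 0.246 and 0.452. Without called doublets Myh7 was at 0.969 in P5 over E18.5, and with under 15000 UMIs at 0.493 in KO over E18.5. Without the highest nucleus, an alternative chosen after seeing the data, Myh6 was at 0.723 in KO. The cause of these shifts was not tested. Myh7-rich nuclei made up 12.2% at E14.5 and 5.47% in KO with a limit of 250 CPM, and 1.71%, 4.50% at E18.5 and 1.62% in KO with 1000 CPM. Within 5000 bases of the start, Myh7 had 2 peaks at E14.5 and 1 in each other library, and Myh7b had 3, 3, 1, 1 and 2. With 1 library a group, the spread between animals is unknown, Myh6 in adult rests on 4 UMIs, and the rich adult nuclei number 26.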

Other observations

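Muscle spindle fibers are known to carry slow and cardiac-type myosins, and Egr3, a transcription factor of spindles, was read for that reason. Egr3 was found in 5, 9, 5, 1 and 22 of the Ttn-selected nuclei by age and in KO, with 9, 21, 7, 1 and 50 UMIs. Of these nuclei, 3, 1, 0, 0 and 5 held Myh7b and 3, 1, 0, 0 and 2 held Myh7. For Myh7b these are 60%, 11.1%, 0, 0 and 22.7%, beside 24.9%, 9.81%, 3.76%, 0.587% and 13.7% of nuclei without Egr3. For Myh7 they are 60%, 11.1%, 0, 0 and 9.09%, beside 49.8%, 10.4%, 6.25%, 0.723% and 12.7%. The nuclei with and without Egr3 were not matched in depth. Egr3 was detected in too few nuclei to say how many of the others were of spindles. Among Myh7b-rich nuclei of E14.5 the spindle-linked genes Etv5 and Ntf3 were 5.14 and 3.20 times as high as in free nuclei, and Piezo2 was 6.67-fold lower. Of the measured spindle genes, 3 of 7, 2 of 8, 0 of 7, 0 of 5 and 6 of 9 were at least 2-fold higher in Myh7b-rich nuclei, beside 5.51%, 5.77%, 5.27%, 6.40% and 6.89% of all genes. The values of P5 and adult rest on 20 and 13 rich nuclei, in which 7 and 8 of the 10 listed spindle genes had 0 UMIs. They cannot be compared with that of KO. In Myh7-rich nuclei of KO 1 of 9 was higher and 1 lower, beside 6.55% and 11.0% of all genes. The KO values in Myh7b-rich nuclei were 14.0 times for Etv4, 7.34 for Egr3, 4.67 for Ntf3 and 3.42 for Etv5.

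Of the 4 nuclei with at least 8 Myh6 UMIs, 3 held 0 Myh7 UMIs. The KO nucleus with 42 Myh6 UMIs held 0 Myh7 and 8 Myh7b UMIs among 7063, with Ttn at 3.62%. It held 2 of 14 cardiac markers, Myl4 and Actc1, at 3 and 1 UMIs. An E18.5 nucleus with 9 Myh6 UMIs held 0 Myh7 and 17 Myh7b UMIs. Another of E18.5, outside the selection with Ttn at 0.452%, held 20 Myh6, 0 Myh7 and 6 Myh7b UMIs. That nucleus held 4 of 14 cardiac markers, Myl4, Tbx5, Ryr2 and Actc1. A further KO nucleus, above the depth limit with 31512 UMIs, held 9 Myh6 and 20 Myh7 UMIs. These nuclei were chosen after their values were seen.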
